A study of Mus musculus with 25 samples.

Results

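The Tbx19 cells were 7 of 25 single mouse neurons, chosen because they carried the transcription factor gene Tbx19 at 10 RPKM or more (read number per kilobase of transcript length, set relative to the reads of each cell). The other 18 cells all had Tbx19 listed at 0, so no cell lay just below the threshold, and the lowest Tbx19 cell stood at 17.1 RPKM. All 25 cells were picked by hand for green fluorescence out of the arcuate nucleus with the median eminence, both at the floor of the hypothalamus, of 2 male RIP-Cre mice, which were pooled, had a (C57BL/6 x DBA)F2 background and averaged 63 days of age. RIP-Cre mice express Cre recombinase from a rat insulin promoter, and the cells were marked by the viral reporter AAV-loxSTOPlox-GFP, which makes GFP only after Cre has acted, so every cell on both sides of the comparison had carried Cre activity. The cells of both groups therefore came from 1 pooled sample. Cells were not treated as replicates, no p-value is given, and each result below is a description of these 25 cells.

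Tbx19, also called Tpit, belongs to the T-box family, transcription factors that share a DNA-binding domain. It is best known from the anterior pituitary, where it is needed in corticotrophs for the expression of Pomc, the precursor gene of adrenocorticotropic hormone. In the hypothalamus Pomc is made by arcuate neurons that lower food intake, and neighbouring neurons use GABA, dopamine, somatostatin and other peptides. Htr2c encodes the serotonin 2C receptor, a Gq-coupled receptor by which serotonin acts on arcuate neurons, and Sstr1 encodes a Gi-coupled somatostatin receptor.

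Tbx19 itself (chr1:165137855-165160773, minus strand, GRCm38, from GENCODE M21) was listed at 158 RPKM in cell 10, 156 in cell 13, 106 in cell 14, 17.1 in cell 24, 60.3 in cell 25, 112 in cell 32 and 28.0 in cell 43. These values, which chose the cells, corresponded to an estimated 83.6 to 1107 reads. Depth, read off as the spacing of low values in each cell, was 1270000 to 2190000 reads in the Tbx19 cells (median 1535000) and 890000 to 3030000 in the others (median 1885000). Between 3843 (cell 43) and 5266 genes reached 10 RPKM in the Tbx19 cells and 4337 to 6183 in the others. The nuclear RNA Malat1 was at 78.7 to 196 RPKM in the Tbx19 cells, whereas 6 of the 18 other cells (1, 3, 5, 6, 29 and 31) lay below 20 RPKM. Leaving out these 6 cells took 8 of the named genes back across the threshold for a call, as given beside each of them.

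Of the other T-box genes 2 could be tested, Tbx3 and Mga, and Tbx3 was the one higher in the Tbx19 cells by the rules given below. By the first of these rules 0 were lower, and over all genes 1.87% were higher and 4.08% lower. Tbx3, a factor with a known role in arcuate neuron identity, reached 10 RPKM in 6 of 7 Tbx19 cells and 5 of 18 other cells, with a lowest, median and highest value of 0, 42.9 and 88.95 RPKM in the Tbx19 cells and 0, 0 and 106 RPKM in the others. The group means of log2(RPKM + 1) differed by 2.72. Cell 43 alone among the Tbx19 cells had none. Mga, a T-box protein of MAX complexes, reached the level in 2 Tbx19 cells and 3 others, and of the 16 listed T-box genes 9 were at 0 in all 25 cells.

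The promoters of Tbx19, of its named marker Htr2c and of 2 of the leading higher genes are shown because a T-box factor binds DNA at a defined half-site. Each run is the 250 bases before the RefSeq start (GRCm38.p6), and capitals mark the 7-base core GGTGTGA of the half-site AGGTGTGA, searched on both strands, the other strand reading TCACACC and TCACACCT, so that each longer match contains the shorter one.
Tbx19 (chr1:165160774-165161023, minus strand): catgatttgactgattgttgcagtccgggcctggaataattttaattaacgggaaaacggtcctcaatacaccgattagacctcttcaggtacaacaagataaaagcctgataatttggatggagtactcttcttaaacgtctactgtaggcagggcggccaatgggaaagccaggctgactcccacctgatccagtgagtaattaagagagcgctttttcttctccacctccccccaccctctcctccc
Htr2c (chrX:146962263-146962512, plus strand): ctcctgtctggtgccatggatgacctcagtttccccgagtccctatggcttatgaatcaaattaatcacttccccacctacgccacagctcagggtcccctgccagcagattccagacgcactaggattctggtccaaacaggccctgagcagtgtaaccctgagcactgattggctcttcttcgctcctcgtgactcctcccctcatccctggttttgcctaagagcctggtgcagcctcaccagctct
Gpr101 (chrX:57503758-57504007, minus strand): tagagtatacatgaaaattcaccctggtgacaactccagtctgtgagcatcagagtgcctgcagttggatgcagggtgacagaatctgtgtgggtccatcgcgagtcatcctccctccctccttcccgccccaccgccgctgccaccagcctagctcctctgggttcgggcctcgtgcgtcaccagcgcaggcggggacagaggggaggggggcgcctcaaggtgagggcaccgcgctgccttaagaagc
Ephx4, the later of 2 starts (chr5:107405511-107405760, plus strand): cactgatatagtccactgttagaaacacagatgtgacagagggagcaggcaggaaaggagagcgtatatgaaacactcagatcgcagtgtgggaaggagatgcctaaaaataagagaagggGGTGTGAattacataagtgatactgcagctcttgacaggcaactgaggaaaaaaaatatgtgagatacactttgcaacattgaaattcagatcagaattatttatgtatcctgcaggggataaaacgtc
Of these 4 windows only that of Ephx4 held the core, and the window of its earlier start (chr5:107403263-107403512) did not. Of the 52 genes higher in the Tbx19 cells by both rules given below, 38 matched the promoter table, and 3 of these (7.89%) held GGTGTGA, against 3.40% of 7349 matched genes among those tested, 3.84% of 27025 promoters and 7.41% of the 81 matched genes that were lower. The full AGGTGTGA was in 0 of the 38, in 2 of the 81, in 0.735% of the tested genes and in 1.30% of all promoters. A match is only a run of letters in this window.

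Across 9782 genes that reached 10 RPKM in at least 3 of the 25 cells, the Tbx19 cells differed from the others in a small share. A gene was called higher or lower where the mean of log2(RPKM + 1) differed by 2 or more, and separately where the share of cells at 10 RPKM or more differed by 50 percentage points or more. By the first rule 183 genes (1.87%) were higher in the Tbx19 cells and 399 (4.08%) were lower. By the second, 66 genes (0.675%) were detected more often and 119 (1.22%) less often. Both rules together held for 52 higher genes (0.532%) and 106 lower genes (1.08%). The median difference over all 9782 genes was -0.10. No gene had all 7 Tbx19 cells above or all 7 below all 18 others, so every gene named below overlapped between the groups.

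These counts moved with the settings. With a pseudocount of 0.1 RPKM the first rule gave 728 higher and 1271 lower genes, and with 5 RPKM it gave 19 and 43. Leaving out any 1 of the 7 Tbx19 cells raised the genes detected more often from 66 to a number from 111 (without cell 32) to 138 (without cell 25). Without the 6 low-Malat1 cells the same 4 counts were 198 higher, 500 lower, 79 detected more often and 189 less often.

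**Figure D1:**
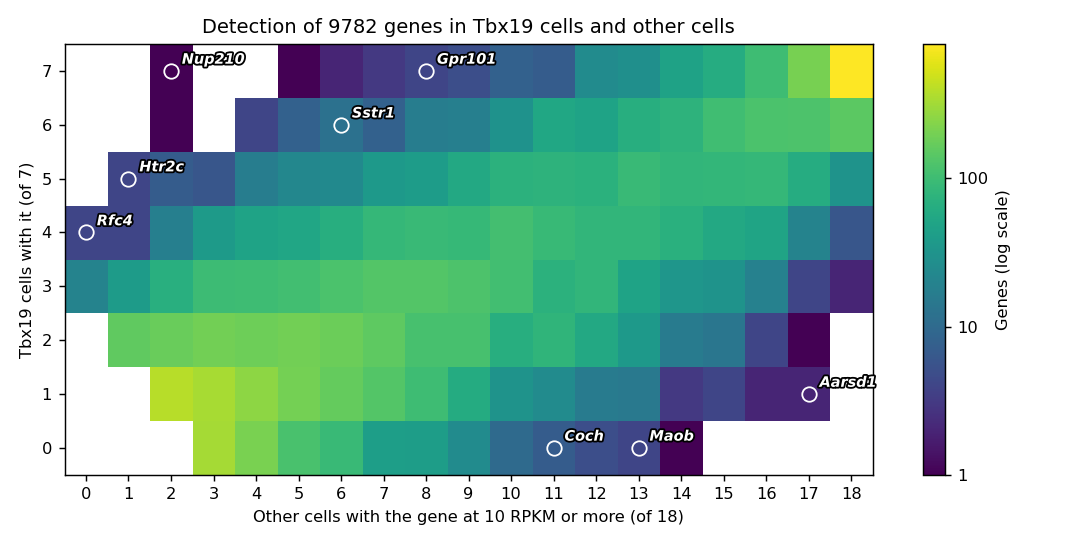
Number of genes (colour, log scale) by how many of the 18 other cells (x axis) and of the 7 Tbx19 cells (y axis) held them at 10 RPKM or more, for 9782 genes. Circles mark named genes: Nup210 lies at 7 of 7 against 2 of 18, Htr2c at 5 against 1, and Maob at 0 against 13.

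Htr2c was rare outside the Tbx19 cells. Its values were 24.2 RPKM in cell 10, 14.6 in cell 13, 24.9 in cell 14, 28.7 in cell 24, 10.65 in cell 25 and 0 in cells 32 and 43. Thus 5 of 7 Tbx19 cells (71.4%, exact Clopper-Pearson 95% interval 29.0 to 96.3%) reached the level, against 1 of 18 others (5.56%, interval 0.141 to 27.3%). That other cell, number 34, had the highest value of all, 68.4 RPKM, and 1 further cell stood at 8.59. The median of the 7 Tbx19 cells was 14.6 RPKM, so their share depends on the detection level used. The mean difference was 2.59, or 1.35 with a pseudocount of 5 RPKM. Intervals of this kind, here and below, hold only the counting error for these picked cells, as if each were an independent draw. All cells came from 1 pool, and the genes were chosen with these data known, so the intervals do not compare the groups. Of the 7 Tbx19 cells, cell 24 had the least Tbx19 and the most Htr2c (chrX:146962513-147197277). Whether the levels of these genes are related was not tested, and Tbx19 chose the cells.

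Of 14 listed serotonin receptor genes 5 could be tested, and 1, Htr2c, was higher by either rule while the other 4 passed neither. By the first rule 0 were lower, and over all genes 1.87% were higher and 4.08% lower. The median difference of the 5 was 0.48, against -0.10 over all genes. Htr1d was at the level in 2 Tbx19 cells and 3 others, Htr7 in 3 and 4, and Htr6 in 2 and 2. Htr3a and Htr3b, subunits of the serotonin-gated channel, were at 0 in all 7 Tbx19 cells and reached 103 and 238 RPKM among the others.

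Sstr1 was held by nearly all Tbx19 cells but was less restricted to them. It stood at 60.6 RPKM in cell 10, 43.0 in cell 13, 55.6 in cell 14, 140.03 in cell 24, 34.7 in cell 25, 68.5 in cell 32 and 0.19 in cell 43. It reached the level in 6 of 7 Tbx19 cells (85.7%, interval 42.1 to 99.6%) and in 6 of 18 others (33.3%, interval 13.3 to 59.0%), and cells of both groups overlapped in their values. The mean difference was 3.02, and 1.92 with a pseudocount of 5 RPKM. All 5 Tbx19 cells with Htr2c also had Sstr1 (chr12:58211772-58214444), as did cell 34. Of the other somatostatin receptors, Sstr2 was detected in 2 Tbx19 cells and 6 others, Sstr4 in 1 and 1 and Sstr5 in 1 and 2, while Sstr3 was at 0 in all 7. The peptide gene Sst was detected in 1 Tbx19 cell, number 25, at 713 RPKM and in 4 others, up to 1577 RPKM. Htr2c, Sstr1 and Tbx19 had been named together from earlier results of these cells, so their joint presence is not independent evidence.

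**Figure D2:**
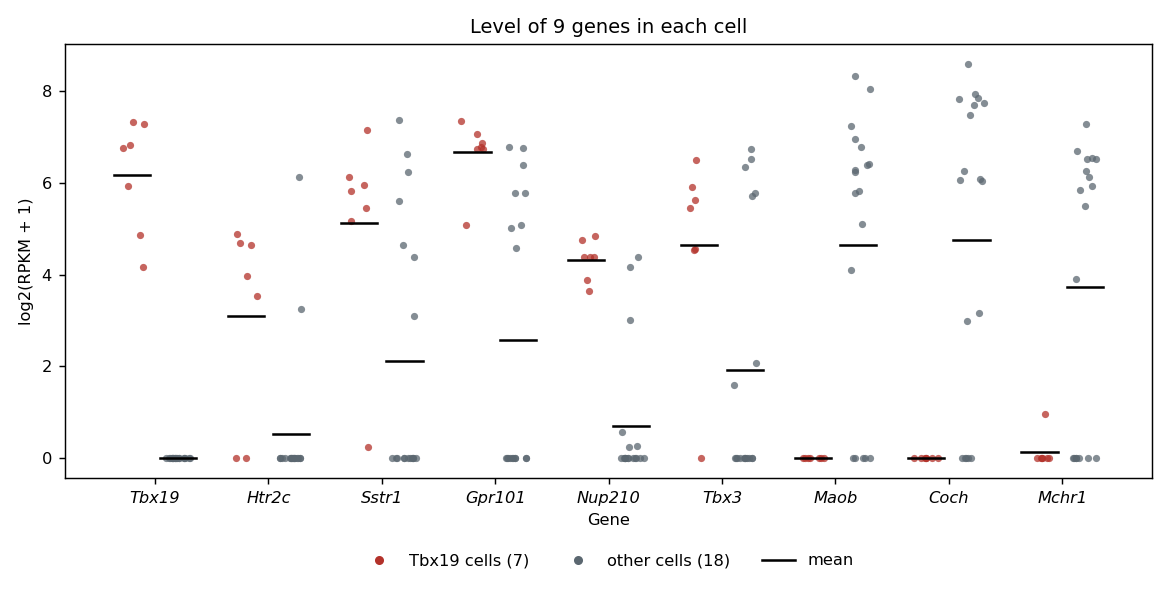
log2(RPKM + 1) of 9 genes in each of the 7 Tbx19 cells (red) and 18 other cells (grey), with group means as bars. Gpr101 and Nup210 are present in all 7 Tbx19 cells, Maob and Coch are at 0 in all 7, and for every gene but Tbx19 some cells of one group lie within the range of the other.

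With predicted genes left out, Gpr101 had the largest difference of the higher genes that passed both rules at the main settings. This did not hold at a pseudocount of 0.1 RPKM, where Nup210 (6.08) lay above Gpr101 (5.94). Nor did it hold in every case with 1 Tbx19 cell left out, where Abhd14b reached 4.78 and Gpr101 at most 4.36. This X-linked orphan receptor gene (chrX:57496668-57503757), which couples to G proteins and is known for its duplication in pituitary gigantism, was at 32.8, 109.6 and 163 RPKM as lowest, median and highest value in the Tbx19 cells. In the others the lowest and median values were 0 and the highest was 109.6 RPKM. All 7 Tbx19 cells held it (interval 59.0 to 100%), against 8 of 18 others (44.4%, interval 21.5 to 69.2%), and the mean difference was 4.10. Without the 6 low-Malat1 cells it was 4.77. Nup210, a protein of the nuclear pore, was detected 88.9 percentage points more often: it lay between 11.4 and 27.7 RPKM in all 7 Tbx19 cells and reached 10 RPKM in 2 of 18 others, up to 19.8 RPKM, with a mean difference of 3.62 (1.94 with a pseudocount of 5 RPKM). Its median in the 7 was 19.9 RPKM, below the alternative detection level of 20 RPKM, so this gap in shares depends on the level used. In all, 16 of the 9782 genes were in all 7 Tbx19 cells and in at most 9 others.

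From here on, a pair of numbers gives the Tbx19 cells (of 7) and the other cells (of 18) that held a gene at 10 RPKM or more, and a number with decimals in parentheses is the difference of mean log2(RPKM + 1), Tbx19 cells minus others. Nkain2, a partner of the sodium pump, was detected in 6 Tbx19 cells and 2 others, with a difference of 3.74. Ngfr, the low-affinity neurotrophin receptor, was detected in 6 and 6 (3.64), and the matrix protein gene Sparcl1 also in 6 and 6 (3.70). Sulf1, an enzyme that trims sulfate from heparan sulfate, was found in 5 and 1 (3.66). The adhesion molecules Ncam2 (7 and 6, difference 3.30) and Cntn6 (5 and 2, 3.33) and the secreted Fam19a2 (6 and 5, 3.25) were also among the 15 leading higher genes. Of all 64 adhesion and guidance genes tested, 5 were higher by the first rule and 2 were lower, against 1.87% of all genes higher and 4.08% lower, and their median difference was 0.31. The others among the 5 included Cbln4, a synaptic organiser, at 15.0 to 230.4 RPKM in all 7 Tbx19 cells and at 10 RPKM or more in 9 of 18 others (difference 3.16), and Chl1 (2.77).

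Tubb2b, a tubulin of developing neurons, was at 27.6 to 127 RPKM in all 7 Tbx19 cells and at the level in 7 others (3.16). The epoxide hydrolase family gene Ephx4 was detected in 6 and 4 (3.73), Cenpv, which binds chromatin and microtubules, in 5 and 2 (3.33), and Trabd in 5 and 2 (3.72). Rfc4, a subunit of the replication clamp loader, was found in 4 Tbx19 cells, at 64.7 to 83.1 RPKM, and in 0 of 18 others, of which 1 had 3.87 RPKM. Abhd14b, a hydrolase-fold enzyme, was at 58.6 to 90.1 RPKM in 5 Tbx19 cells, at 0 in cells 32 and 43 and at the level in 1 other cell, with a difference of 4.05. Exons of Abhd14b overlap Abhd14a, those of Rfc4 overlap Eif4a2, and those of Ephx4 and Trabd overlap genes on the opposite strand, and since the libraries carried no strand the partners could not be told apart.

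**Figure D3:**
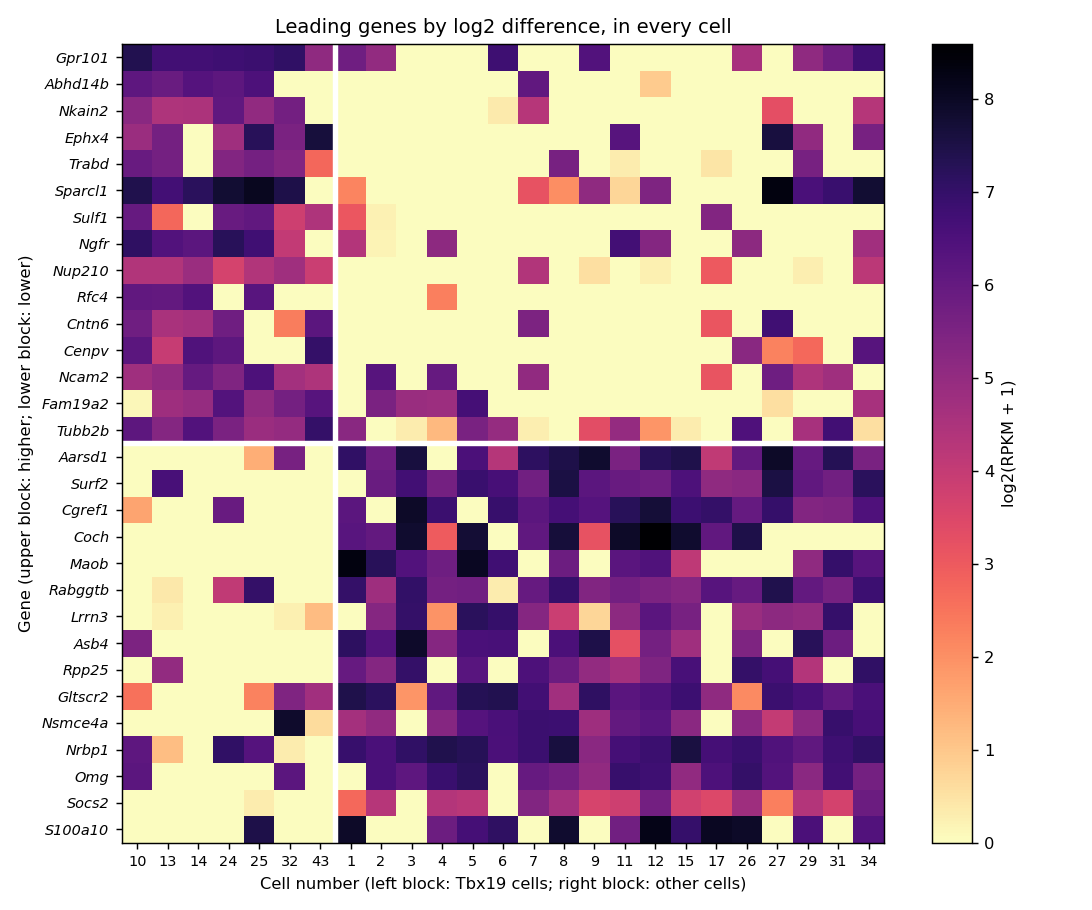
log2(RPKM + 1) (colour) of the 15 higher and 15 lower genes with the largest mean differences among those past both rules (rows) in every cell (columns). Predicted genes were left out. The upper left and lower right blocks are dark by construction, since the values chose the genes, and gaps such as Ngfr, Nkain2 and Sparcl1 in cell 43 show how unevenly single cells carried them.

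Among receptors and channels, Fgfr1, a fibroblast growth factor receptor, was at 14.0, 27.45 and 64.3 RPKM (lowest, median, highest) in the Tbx19 cells and in 8 of 18 others (2.55). Nalcn, the sodium leak channel that sets the resting potential, was at 10.9, 16.5 and 46.9 RPKM and in 5 of 18 others (2.28). That difference was 1.90 when the Tbx19 cells were chosen at 20 RPKM, which moves cell 24 to the others. Crhr2, a receptor for the urocortins, was detected in 4 Tbx19 cells and 3 others (2.83, or 1.97 with that choice). Grm5, a Gq-coupled glutamate receptor, was found in 6 and 5 (2.17), and the GABA-A subunit gene Gabra4 in 6 and 9 (2.26, and 1.72 without the low-Malat1 cells). Grm5 missed the rule in 3 of the 7 cases with 1 Tbx19 cell left out, and Gabra4 in 1. Of 29 GABA-A and glutamate receptor subunit genes tested, 1 was higher by the first rule, Gabra4. The 1 lower was another GABA-A subunit gene, Gabrg1 (3 and 13, -2.04), which missed the rule in 4 of those cases. The median difference of this list was 0.09. Of 29 sodium, calcium and TRP channel genes 1 was higher and 0 lower by the first rule, and of 29 potassium and HCN channel genes 0 passed in either direction. Over all genes 1.87% were higher and 4.08% lower.

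Of 33 hypothalamic transcription factor genes tested, 4 were higher and 1 lower by the first rule, against 1.87% of all genes higher and 4.08% lower, with a median difference of 0.14. Besides Tbx3 these were Nfix (5 Tbx19 cells and 3 others, 3.11), a nuclear factor I protein, Dlx1 (5 and 3, 2.499), a homeobox gene of GABA neurons, and Hmx2 (3 and 1, 2.21). The value for Dlx1 was 1.87 without the low-Malat1 cells, and that for Hmx2 was below 2 in 3 of the 7 cases in which 1 Tbx19 cell was left out. Exons of Nfix, Dlx1 and Tbx3 each overlap another gene. The lower one was Lhx1, a LIM homeobox gene, listed at 0 in all 7 Tbx19 cells and detected in 7 of 18 others, up to 107 RPKM.

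All 7 Tbx19 cells carried the genes for GABA synthesis and none reached 10 RPKM for a vesicular glutamate transporter. Gad1, a glutamate decarboxylase, was at 76.3 to 110.1 RPKM in the 7 cells, and at 0 to 137 RPKM in the others, of which 16 had it. Gad2, the second decarboxylase, was at 35.5 to 154 RPKM in the 7 and in 12 of 18 others. The vesicular GABA transporter Slc32a1 reached 10 RPKM in 5 of 7 and 5 of 18 and was above 0 in all 7. Slc17a6, the vesicular glutamate transporter, was at 0 in all 7 and detected in 2 others. The mean differences were 0.74 for Gad1, 1.54 for Gad2 and 1.65 for Slc32a1, all under the rule of 2. Among the 6 tested genes of this list 0 passed in either direction, against 1.87% of all genes higher and 4.08% lower, and the median was 1.24.

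The Tbx19 cells did not share 1 peptide. Each held 2 to 5 of 36 listed peptide genes at 10 RPKM or more, and the leading one was Gal in cell 10 (174 RPKM), Cartpt in cells 13 and 32 (175 and 262), Trh in cell 14 (109), Penk in cell 24 (393), Sst in cell 25 (713) and Pomc in cell 43 (232). Penk, the enkephalin precursor, and Pomc were the most frequent. Penk was in 5 of 7 Tbx19 cells and 5 of 18 others with a mean difference of 3.16, although the share difference of 43.7 points fell short of the second rule. The 2 Tbx19 cells without Penk were the 2 with Gal, the galanin precursor. No cell of either group held both, and 10 of the 18 others held neither.

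Pomc was detected in 5 of 7 Tbx19 cells, at 11.0 to 232 RPKM, and in 5 of 18 others, up to 481 RPKM, with a mean difference of 1.82. Cartpt, a peptide that is co-made with Pomc in many arcuate neurons, was in 4 Tbx19 cells and 6 others (1.53). Both were together in 4 of 7 Tbx19 cells and 3 of 18 others. Further POMC neuron markers were mixed: Tbx3 was in 6 and 5 (2.72), Isl1 in 5 and 13 and Mc3r in 0 and 4. The leptin receptor Lepr did not exceed 0.92 RPKM in the Tbx19 cells and 2.73 RPKM in the rest. Of the 5 tested genes of this list, 4 lay above 0 and 1 below, with a median difference of 1.53. By the first rule 1 was higher and 0 were lower, against 1.87% and 4.08% of all genes. Trh, the thyrotropin-releasing hormone precursor, was in 2 Tbx19 cells and listed at 0 in all 18 others, as was Gnrh1, which was in cell 14 alone at 40.7 RPKM. Agrp, the peptide that opposes Pomc, was in 2 and 7.

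**Figure D4:**
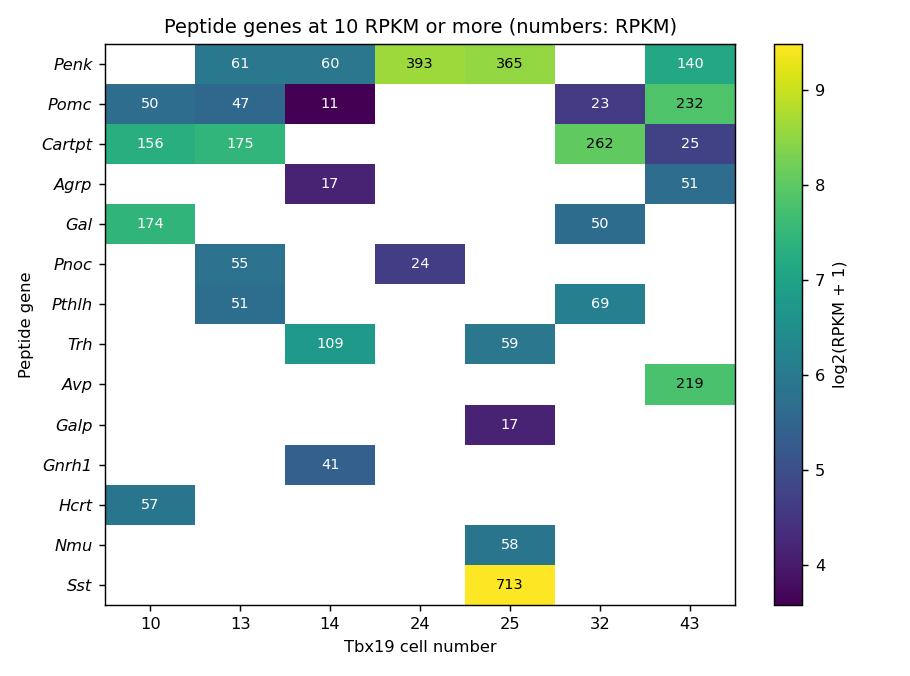
Peptide genes at 10 RPKM or more in each of the 7 Tbx19 cells (columns), with the RPKM printed and log2(RPKM + 1) as colour, where white is below 10 RPKM. Penk fills 5 columns, Gal the other 2, and Pomc 5.

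Of 14 corticotroph genes 7 were at 0 in all 25 cells and the other 7 were detected in Tbx19 cells. Detected were Pomc, the LIM factor Isl1 (5 and 13), the glucocorticoid receptor Nr3c1 (6 and 17), Nr4a1 (4 and 14), Nr4a2 (1 and 0), the convertase Pcsk1 (1 and 5) and the receptor Crhr1 (1 and 2). Of the 6 that could be tested 0 passed in either direction, against 1.87% of all genes higher and 4.08% lower. Their median difference was 0.11. Pitx1, Neurod1, Neurod4, Avpr1b, Pax7 and Gata2 were listed at 0 in all 25 cells, and 9 of 11 other pituitary hormone and lineage genes were at 0 throughout, with a summed level of at most 9.48 RPKM in any Tbx19 cell. Of 12 neuron markers, Snap25, Tubb3, Stmn2, Uchl1 and Nefl were detected in all 7 Tbx19 cells, Syt1 and Map2 in 6, Elavl3, Elavl4 and Rbfox3 in 5, Elavl2 in 4 and Nefm in 1. In the others Elavl4 was in 17 of 18, and 0 of the 12 passed the first rule. The summed level of 9 microglial markers was at most 1.00 RPKM in the 7 cells, that of 9 astrocyte markers at most 8.31 RPKM and that of 11 vascular and meningeal markers 0 to 37.15 RPKM, with Cldn5, Tek and Col1a1 at 0. Pecam1, an endothelial adhesion gene, was nevertheless in 3 Tbx19 cells and 1 other. Of 12 oligodendrocyte lineage markers 9 were at 0 in all cells and the sum was 0 to 68.6 RPKM in the Tbx19 cells and 1.67 to 103 RPKM in the others. Tanycyte and ependymal markers summed to 0 to 78.95 RPKM in the Tbx19 cells and 0 to 127 RPKM in the others.

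Several of the lower genes were present in most of the other cells and in none of the Tbx19 cells. Maob, the monoamine oxidase that degrades dopamine and phenethylamine (chrX:16709282-16817366), was listed at 0 in all 7 Tbx19 cells, which allows a share of up to 42.9% by the limit of 3 counts (41.0% by the exact interval), and was detected in 13 of 18 others with a median of 64.8 RPKM. Coch, a secreted matrix protein best known from the inner ear (chr12:51593341-51605771), was also at 0 in all 7, and at 10 RPKM or more in 11 of 18 with a median of 66.1 RPKM. Lrrn3, a neuronal leucine-rich repeat protein, stayed at 1.29 RPKM or less in the 7 and was in 13 of 18 (-4.05). Socs2, a suppressor of cytokine signalling, stayed at 0.24 RPKM or less and was in 14 of 18 (-3.68). In total, 52 of the 9782 genes were below 10 RPKM in all 7 Tbx19 cells and at or above it in at least 9 of the 18 others, and 17 of them were listed at 0 in all 7.

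Aarsd1, an alanyl-tRNA editing protein, was in 1 Tbx19 cell, at 46.7 RPKM, and in 17 of 18 others with a median of 112 RPKM (-5.15). Surf2 was in 1 and 17 (-4.96), and Cgref1, a secreted calcium-binding protein, in 1 and 16 (-4.82). Rabggtb, a subunit of Rab geranylgeranyl transferase, was in 2 and 17 (-4.11). Asb4 and Rpp25 were each in 1 Tbx19 cell and in 13 and 14 others. Nsmce4a was in 1 and 16, Gltscr2 in 2 and 16, Omg, a myelin-associated inhibitor of neurite growth, in 2 and 16, S100a10 in 1 and 12, and the kinase-like Nrbp1 in 3 and 18. The spread within the Tbx19 cells was wide even so: Nsmce4a stood at 234 RPKM in cell 32 and at 0 or 0.53 RPKM in the other 6. Exons of Aarsd1, Surf2 and Rabggtb overlap other genes, so their reads may be shared.

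Of 20 neuropeptide receptor genes tested, 16 lay below 0 and 4 above. In this list 1 was higher and 5 were lower by the first rule, against 1.87% and 4.08% of all genes, and the median difference was -1.18. Mchr1, the melanin-concentrating hormone receptor, did not exceed 0.96 RPKM in the Tbx19 cells and was in 11 of 18 others with a median of 50.4 RPKM (-3.59). The receptor gene Gpr83 was in 2 and 12 (-3.58). Npy2r, a neuropeptide Y receptor, was in 1 and 10 (-2.24, or -1.85 when cells were chosen at 20 RPKM). Calcr, the calcitonin receptor, was in 0 and 7 (-2.17), and the parathyroid hormone 2 receptor Pth2r was at 0 in all 7 and in 6 others, and it was no longer called without the low-Malat1 cells (-1.50). Glp1r, the receptor for glucagon-like peptide 1, was in 3 and 7 and differed by -0.11.

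Of 7 dopamine neuron markers tested, 4 passed the first rule downward (Th, Slc18a2, Prlr and Lhx1) and 0 upward, against 1.87% of all genes higher and 4.08% lower, with a median of -2.01. Th, the rate-limiting enzyme of dopamine synthesis, was in cell 43 at 248 RPKM and did not exceed 0.45 RPKM in the other 6 Tbx19 cells, against 7 of 18 others. The difference was -2.13, and -3.26 without cell 43. Slc18a2, the vesicular monoamine transporter, was in 1 and 8 (-2.01) and Prlr, the prolactin receptor, in 1 and 9 (-2.07). These 3 values lay so near the rule that each missed it in 5 of the 7 cases in which 1 Tbx19 cell was left out. With the cells chosen at 20 RPKM Th was at -1.75 and Lhx1 at -1.98, and Slc18a2 was at -1.93 without the low-Malat1 cells and at -1.99 with every cell rescaled to the same sum. Ddc, the next enzyme of the pathway, was in 5 and 13 (-0.51), and the dopamine receptor Drd2 in 0 and 3. Among the other cells, numbers 3, 8, 11, 12, 15 and 26 each held Th, Slc18a2 and Lhx1 at 10 RPKM or more. Numbers 2, 4, 6, 7, 9, 17, 27 and 34 had all 3 genes at 0, as did Tbx19 cells 10, 13 and 14. The calls of Th, Slc18a2 and Lhx1 thus rest largely on the same other cells.

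Of 38 vesicle release genes, 3 were lower and 0 higher, against 1.87% of all genes higher and 4.08% lower. They were Cplx1 (3 Tbx19 cells and 16 others, -2.76), Cplx2 (3 and 17, -2.49), both complexins that clamp and promote fusion, and the syntaxin Stx1a (3 and 13, -2.03, or -1.71 without the low-Malat1 cells), which missed the rule in 4 of the 7 cases with 1 Tbx19 cell left out. The list median was nevertheless 0.16. Of 19 immediate early genes, 2 were lower, Ier5 (1 and 10, -2.51) and Npas4 (3 and 13, -2.003), and 0 were higher, against 1.87% of all genes higher and 4.08% lower. Npas4 missed the rule with every cell rescaled to the same sum (-1.97) and in 4 of the 7 cases with 1 Tbx19 cell left out. In this list 16 genes lay below 0 and 3 above, with a median of -0.87, or -0.37 without cell 10 and -0.62 without the low-Malat1 cells. The calcium-binding protein Calb1 was in 2 and 11 (-2.57), and the adhesion gene Cntnap2 in 2 and 15 (-2.67). Of 34 G protein and RGS genes 2 were higher, Rgs10 (2.07) and Rgs12 (2.31), and 3 were lower, Rgs2 (-2.32), Rgs7 (-2.13) and the G protein subunit Gng4 (-2.07), against 1.87% of all genes higher and 4.08% lower. None of these 5 calls held in every case with 1 Tbx19 cell left out: Rgs10 and Rgs7 missed the rule in 4 of the 7 cases, Rgs2 and Gng4 in 3 and Rgs12 in 1. Without the low-Malat1 cells Rgs10 was at 1.16, Rgs7 at -1.85 and Gng4 at -1.96. With the cells chosen at 20 RPKM Rgs10 was at 1.15, Rgs12 at 1.95, Rgs7 at -1.56 and Gng4 at -1.20.

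**Figure D5:**
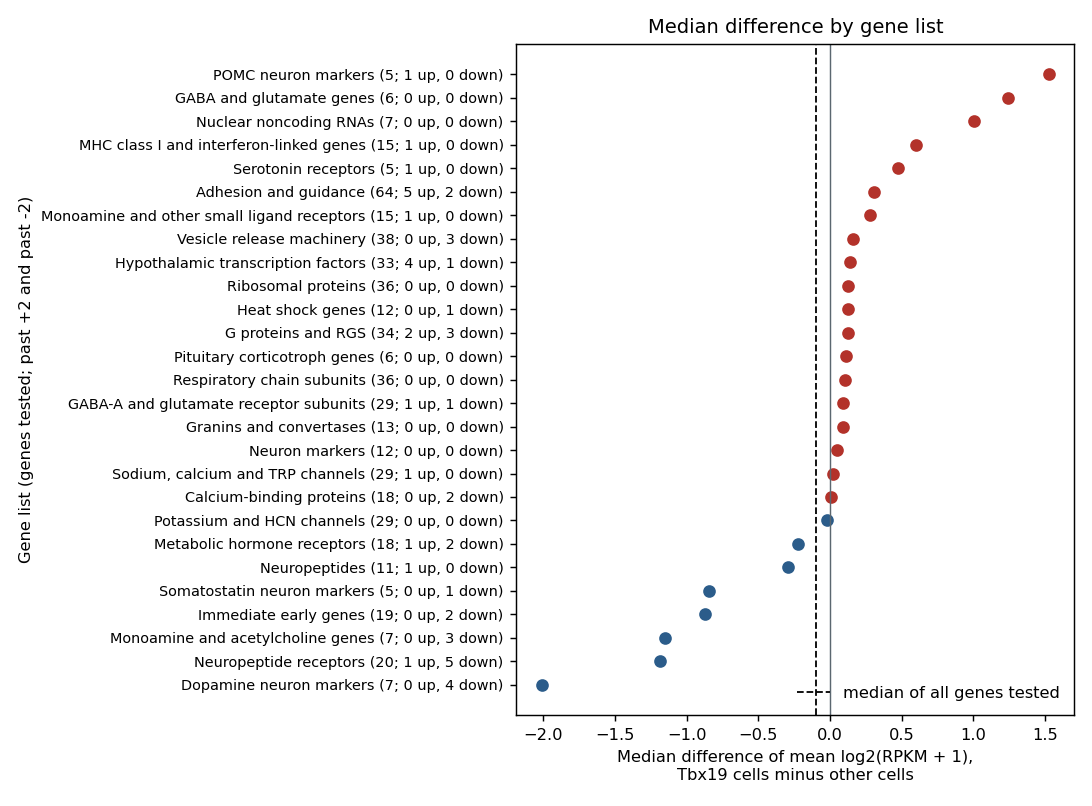
Median difference of mean log2(RPKM + 1), Tbx19 cells minus other cells (x axis), for each gene list with 5 or more genes tested (y axis, with the numbers tested and past 2 and -2). The dashed line is the median over all genes tested, -0.10, and the lists run from -2.01 for dopamine neuron markers to 1.53 for POMC neuron markers.

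Lists of general cell function lay near the median of all genes. The 36 ribosomal protein genes had a median difference of 0.13, the 36 respiratory chain genes 0.10, the 12 neuron markers 0.05 and the 13 granin and convertase genes 0.09, and 0 genes of these lists passed the first rule. Nuclear noncoding RNAs had a median of 1.00, with Malat1 at 1.49, Meg3 at 1.76 and Snhg11 at 1.53. Without the 6 low-Malat1 cells these 3 values were 0.30, -0.02 and 0.10.

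Over all 9782 genes the Tbx19 cells correlated with each other about as much as with the other cells. Pearson's r of log2(RPKM + 1) had a median of 0.468 over the 21 pairs of Tbx19 cells, 0.466 over the 126 pairs of a Tbx19 cell with another cell and 0.484 over the 153 pairs of other cells; the pairs share cells, and all cells share 1 preparation. The nearest cell to a given Tbx19 cell was another Tbx19 cell in 5 of 7, namely cell 32 for cells 10, 14, 24 and 25 and cell 13 for cell 32, while cells 13 and 43 were nearest to cell 1. Of the 52 higher genes, each Tbx19 cell held 34 (cell 43) to 47, and each other cell 6 to 21, a gap that follows from how the genes were chosen. Among the others, cell 34 held the most, 21, and it also had Htr2c, Sstr1 (97.6 RPKM) and Gpr101 (108 RPKM) with Tbx19 listed at 0.

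Cell 43 stood apart within the group. It had Tbx19 at 28.0 RPKM and the fewest genes at 10 RPKM, and it lacked Htr2c, Tbx3, Ngfr, Nkain2 and Sparcl1, with Sstr1 at 0.19 RPKM. It was also the cell with Th, Avp (219 RPKM) and the highest Pomc and Agrp of the 7. Leaving it out raised the higher genes by the first rule from 183 to 247, and leaving out any of the other 6 also raised them, to 194 to 239.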

How the data were processed

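Per the labels' protocols, GFP-positive cells were picked by hand from papain-digested tissue and made into polyadenylated RNA libraries with Smart-Seq2 and Nextera XT, which carry no molecular identifiers and no strand. A single gene-by-cell table was deposited by the authors, and its form is that of RPKM (decimals; low values times exon length fall on whole-read steps), although it is named as counts. Builds mm10 and GRCm38 are named in the submitters' processing notes, together with featureCounts 1.4.6, SAMtools 0.1.19, Picard 2.5.0, TopHat2 2.0.14 and bcl2fastq. The annotation behind the RPKM is not given in the sources used here.

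Of 33082 rows, 26 with date-like names were left out, and 755 repeated symbols were each taken from their row of largest sum, which left 30903. Exon lengths, positions and overlaps came from GENCODE M21 (length for 73.6% of symbols), and promoters from RefSeq on GRCm38.p6. Depths are estimates from whole-read steps, and value times length summed to between 1.38 and 1.47 of what matching lengths would give, so their error is not known; RPKM cannot give whole reads here, and no count test was run. Differences are means of log2(RPKM + 1), which understates changes of low genes, and an exact 0 can be a failed capture.

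The members, the 39 gene lists and the rules were chosen with earlier results of these data known. Named were up to 15 genes per direction past both rules, up to 5 per list by size of difference, all T-box, serotonin receptor and somatostatin system genes, a set of 18 genes such as Htr2c, Sstr1 and Pomc, and the top 3 peptides of each Tbx19 cell. Predicted genes, such as those with Gm or Rik names, were left out of the 15 per direction. They were 3 of the higher and 4 of the lower genes past both rules. Member genes quoted for marker and pituitary lists only as detected or at 0, such as Pitx1, Tek and Snap25, and single cells such as 34 and 43 were chosen for mention once their values were known. Alternatives changed the pseudocount, the filter, the detection level, the Tbx19 threshold, the scaling, the handling of repeated symbols and the cells included. Computation used Python 3.11.15, pandas 2.3.3, numpy 2.4.6, scipy 1.17.1 and matplotlib 3.10.9, and the comparison and the depth estimate were tested on simulated data.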

Additional observations from a re-analysis of the deposited data

Results flagged for a closer look

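In the 7 Tbx19 cells, 35 measures were searched for a single outlying cell by Dixon's ratio of the gap to the range. The ratio had to pass its 95% value for 7 cells, which normally distributed values pass by chance in about 1 of 20 groups. That rate does not hold for single-cell RPKM with many values at 0. A gene above 0 in 1 cell alone, such as Sst, always meets the rule. The rule was met by 6 genes, always by the highest cell. Cell 43 stood out for Pomc at 232.24 RPKM (next 50.43), Th at 247.97 RPKM (next 0.45) and Agrp at 50.56 RPKM (next 16.75). Cell 25 stood out for Sst at 712.87 RPKM (next 0), Gad2 at 153.96 RPKM (next 78.01) and Slc32a1 at 52.99 RPKM (next 22.92). The causes were not tested.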

How the results depend on the processing

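The number of genes past a difference of 2 depended most on the pseudocount: 183 higher genes became 728 at 0.1 RPKM and 19 at 5 RPKM, and 399 lower genes became 1271 and 43. Choosing the Tbx19 cells at 20 RPKM raised the genes detected more often from 66 to 100, and leaving out the cells below 20 RPKM of Malat1 raised those detected less often from 119 to 189. Leaving out 1 Tbx19 cell at a time gave 194 to 247 higher genes, 407 to 504 lower genes, 111 to 138 detected more often and 171 to 207 detected less often. With 6 cells in place of 7 a share moves in coarser steps, and 63 to 65 of the 66 and 115 to 118 of the 119 genes were among those found. The genes past the difference of 2 changed more: 136 to 155 of the 183 higher and 303 to 343 of the 399 lower were found again. Cells 10, 13, 24 and 32 each raised the last count by over 1.5 times when left out (to 202, 203, 202 and 207). All other alternatives stayed within 1.5 times of these counts. The genes behind the share counts still changed with the detection level. At 20 RPKM 23 of the 66 and 55 of the 119 genes were among those found, and at 5 RPKM 41 and 85. They also changed when the Tbx19 cells were chosen at 20 RPKM, with 44 of the 66 and 62 of the 119 found again. That choice kept 133 of the 183 higher and 288 of the 399 lower genes. A threshold of 5 RPKM, or others listed at 0, gave the same 7 and 18 cells.

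Of 68 named genes past the difference of 2, 0 changed sign under any of the 19 alternatives. These genes were picked for large differences in the same cells, so this is not separate support for them. The alternatives for the filter, the detection level, a threshold of 5 RPKM and others listed at 0 could not change these differences. With a pseudocount of 5 RPKM 29 stayed past it, without the low-Malat1 cells 60, with the threshold at 20 RPKM 58, and 53 held in all 7 cases with 1 cell left out. No paired analysis was possible because the cells form 1 labelled group and their numbers only name them. At the median depth 10 RPKM equals an estimated 29.4 reads of Penk and 168 of Htr2c, so the same level stands for more reads in a longer gene. A gene listed at 0 in 7 cells may still be present in other such cells.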

Other observations

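Of 15 MHC class I and interferon-linked genes tested, 1 was higher and 0 lower by the difference of 2, against 1.87% and 4.08% of all genes. By the rule on shares 0 passed, against 0.675% and 1.22% of all genes. Of the 15, 11 lay above 0 and 4 below, with a median difference of 0.60. The class I gene H2-Q2 was at 23.1 to 156 RPKM in 5 of 7 Tbx19 cells and 0 in cells 25 and 43, and it reached 10 RPKM in 7 of 18 others (2.04, or 1.57 to 2.79 with 1 Tbx19 cell left out). Genes of this family are near-identical copies, so reads may be split between them. Ifi27, an interferon-inducible gene, was at 150.01, 211 and 372 RPKM in cells 13, 24 and 25 and at 0 in the other 4.

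Among calcium-binding proteins, Calb2 (calretinin) was at 112 to 206 RPKM in 6 of 7 Tbx19 cells and 0 in cell 43, against 14 of 18 others with a median of 60.5 RPKM (1.46). Of 12 tested heat shock genes 0 were higher and 1 was lower by the difference of 2, against 1.87% and 4.08% of all genes. The lower one, the co-chaperone Dnajb5, did not exceed 3.67 RPKM in the Tbx19 cells and was in 7 of 18 others (-2.20). Hspb1 was at 0 in all 7 and reached 163 RPKM among the others.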
